A study of Mus musculus with 32 samples.

Results

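The genes described here carry, make, break down or sense serotonin. They were chosen by name, as the serotonin transporter Slc6a4, the synthesis enzyme Tph1, the vesicular carrier Slc18a2, the monoamine oxidases Maoa and Maob and the receptors Htr1b, Htr2a, Htr2b and Htr7. The choice was made because Slc6a4 had lower counts in pleural than in subcutaneous AE17 tumors whatever covariates entered the comparison, so the AE17 site values below are a description without a test. Of the 9 genes, 7 have a row among the 39676 genes of the count table, and Slc18a2 and Htr2a are not analysed here.

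RNA was sequenced from the whole tumors of 32 female mice aged 8 to 10 weeks, with 8 mice in each of 4 groups. The mesothelioma cell lines AB1 and AE17, both of mouse origin, were grown in BALB/c and C57BL/6 mice respectively, so that cell line and mouse strain change together. Each mouse received 500000 AB1 cells or 1000000 AE17 cells, either into the pleural cavity in 200 µL (intrapleural, IPL) or under the skin of the right flank in 100 µL (subcutaneous, SC). The IPL mice were under isoflurane when the cells were given and the SC mice had the flank shaved, so that site cannot be told apart from these procedures. All mice were otherwise untreated, and tumors were taken on day 10 after the lungs and the surrounding tissue had been cut away. Because whole tumors were measured, fewer cells of a type and less RNA per cell cannot be told apart.

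Serotonin is made from tryptophan by a tryptophan hydroxylase, Tph1 outside the nervous system and Tph2 in neurons, followed by the decarboxylase Ddc. Slc6a4 takes serotonin back into cells from the space around them, vesicular carriers store it, and monoamine oxidases degrade it. In blood most serotonin is held in platelets, which take it up through Slc6a4, and in rodents mast cells make and release it. Most serotonin receptors are coupled to G proteins, and tryptophan that does not become serotonin is mainly used for protein or degraded along the kynurenine pathway.

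The transporter and the synthesis enzyme are the members with the largest site differences, and their promoters are shown for that reason. Sequences are those of RefSeq on GRCm38.p6, 5′ to 3′ on the strand of the gene, from 250 bases before to 50 bases after an annotated start, and the capitals mark the E-box motif CANNTG. Slc6a4 has 1 such window, at chr11:76998347-76998646 on the plus strand, and Tph1 has 2 on the minus strand, at chr7:46667328-46667627 (start 1) and chr7:46672488-46672787 (start 2).
Slc6a4: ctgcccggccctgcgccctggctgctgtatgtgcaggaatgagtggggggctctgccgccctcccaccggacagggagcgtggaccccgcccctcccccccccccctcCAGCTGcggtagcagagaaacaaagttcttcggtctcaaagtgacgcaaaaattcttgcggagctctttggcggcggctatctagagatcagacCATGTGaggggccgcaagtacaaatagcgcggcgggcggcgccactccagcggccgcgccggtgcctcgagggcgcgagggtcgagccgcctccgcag
Tph1, start 1: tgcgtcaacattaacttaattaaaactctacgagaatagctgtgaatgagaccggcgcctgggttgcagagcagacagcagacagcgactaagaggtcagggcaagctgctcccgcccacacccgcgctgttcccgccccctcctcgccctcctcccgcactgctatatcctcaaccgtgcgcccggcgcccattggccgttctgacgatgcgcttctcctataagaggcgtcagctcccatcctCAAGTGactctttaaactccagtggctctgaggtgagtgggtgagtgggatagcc
Tph1, start 2: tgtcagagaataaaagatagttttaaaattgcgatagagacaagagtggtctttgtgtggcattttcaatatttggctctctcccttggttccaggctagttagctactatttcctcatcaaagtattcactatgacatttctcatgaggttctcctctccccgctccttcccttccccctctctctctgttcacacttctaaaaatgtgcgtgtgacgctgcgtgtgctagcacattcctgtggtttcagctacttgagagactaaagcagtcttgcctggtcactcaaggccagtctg
The E-box letters occur 2 times in the Slc6a4 window, 1 time at Tph1 start 1 and not at start 2, and 72.31% of 32851 mouse promoter windows of this length hold them on either strand. Neither TATAAA, found in 13.62% of the windows, nor AGATAA, found in 11.18%, was present in the Slc6a4 or Tph1 windows. These matches describe letters only. Promoter windows were also found for Maoa, Htr1b, Htr2b and Htr7, but not for Maob.

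In the annotation of GENCODE M21 on GRCm38, Slc6a4 spans chr11:76998603-77032340 on the plus strand, with 15 exons after merging of transcripts, and Tph1 spans chr7:46644641-46672537 on the minus strand. Maoa (chrX:16619698-16687818, plus) and Maob (chrX:16709282-16817366, minus) are neighbours on the X chromosome. The receptors lie at chr9:81628291-81633828 (Htr1b), chr1:86099026-86111970 (Htr2b) and chr19:35958734-36057507 (Htr7), all on the minus strand. Exons of Htr1b share 852 bases with D430036J16Rik and exons of Htr2b share 252 bases with Psmd1, both on the opposite strand. Whether strand was used in counting is not given in the sources used here, so reads from these stretches cannot be assigned to a strand.

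Total counts per tumor ranged from 15432258 to 20649645 (median 17230191), and 3 counts, taken as the smallest detectable number, equal 0.145 to 0.194 CPM (counts relative to library size) at this depth, for counting error only. CPM below were scaled with edgeR's TMM factors. Lane 3 carried all 8 AB1 IPL libraries and 2 of the AB1 SC group, whose remaining 6 were on lane 2 together with 5 from AE17 IPL. Lane 1 carried the last 3 of AE17 IPL and all 8 of AE17 SC, so lane and site overlap in both models. Of the mesothelial markers, Pdpn had group medians of 85.6 to 167 CPM. Upk3b reached 31.8 CPM in AB1 IPL (median 0.137 CPM) and 6.50 CPM in AE17 IPL tumors (median 1.85 CPM), against at most 1 count in any SC tumor. Wt1 had medians of 2.08 CPM in AE17 IPL and 0.0901 CPM in AE17 SC tumors, but of 0.689 CPM in AB1 IPL and 0.916 CPM in AB1 SC tumors. Krt19 had medians of 4.40 and 2.86 CPM in AE17 and of 0.226 and 0.0544 CPM in AB1, IPL before SC. The part of these markers in the site differences was not tested. AE17 IPL replicate 5 stood apart from its group with noradrenergic nerve genes, which is described with Maob below, and values that rest on it are also given without it.

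Slc6a4 was highest in AE17 SC tumors and lower by more than 3-fold in AE17 IPL tumors. Its level in AE17 SC tumors ranged from 6.34 to 13.8 CPM with a median of 11.02 CPM (110 to 228 counts). In AE17 IPL tumors it ranged from 2.08 to 3.25 CPM with a median of 2.70 CPM (34 to 55 counts). All 8 IPL tumors lay below every SC tumor, and the IPL tumors also varied less among themselves (2.69 ± 0.463 CPM against 10.2 ± 2.94 CPM, mean ± SD, n = 8 each). The log2 fold change, IPL minus SC, was -1.91 with a standard error of 0.18, or 3.76-fold. This contrast chose the gene, so no test is given.

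That the value holds under covariates is a reason why the gene was chosen, so its range over settings is a description and supports nothing. Over 12 alternatives the log2 fold change of Slc6a4 lay between -2.04 and -1.82, and over the 16 fits that each left out a tumor between -1.99 and -1.84. It was -2.02 with the sequencing lane as a covariate and -2.02 within lane 1, where 3 IPL tumors met 8 SC tumors. It was -1.83 with muscle, fat and lung marker scores as covariates and -1.82 with mast cell and platelet scores. Markers of the platelet lineage, the main carriers of Slc6a4 in blood, had a median log2 fold change of -0.47 over 4 tested genes. Of these, Itga2b passed the test (log2 fold change -0.61, adjusted p = 0.0452 by edgeR's quasi-likelihood test). Gp1ba (-0.60, adjusted p = 0.133), Pf4 (-0.34, adjusted p = 0.198) and Ppbp (0.91, adjusted p = 0.0514) did not. The summed level of the 7 measured genes was 29.7 to 60.0 CPM in IPL and 46.1 to 83.6 CPM in SC tumors. This sum rests mainly on Pf4 (medians 32.5 and 40.3 CPM, IPL before SC) and Itga2b (11.2 and 17.2 CPM). Gp9, Gp6 and Tubb1 held at most 2, 0 and 5 counts in any IPL tumor and at most 1, 1 and 2 in any SC tumor, too low to test. The part of platelets in the Slc6a4 difference was not tested.

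In AB1 tumors Slc6a4 was low at the SC site and spread widely at the IPL site. The 8 SC tumors held 6 to 15 counts (median 0.546 CPM). The IPL tumors ranged from 0.106 to 4.73 CPM with a median of 0.604 CPM. IPL replicates 2, 3 and 4, with 71, 93 and 35 counts, lay above every SC tumor, and replicates 2 and 3 also above every AE17 IPL tumor, while replicates 6, 7 and 8, with 4, 3 and 2 counts, lay below every SC tumor. The fitted log2 fold change was 1.38 ± 0.65 (standard error) and did not pass the test (adjusted p = 0.143, edgeR's quasi-likelihood test). It was -0.14 under limma-voom with sample quality weights, and 1.39 with an adjusted p of 0.0374 when all 32 tumors entered 1 edgeR fit. Platelet markers varied in the same group, with a summed level of 16.2 to 85.5 CPM, highest in replicate 3, against 20.7 to 34.9 CPM in AB1 SC tumors. Their part in the spread of Slc6a4 was not tested.

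**Figure D1:**
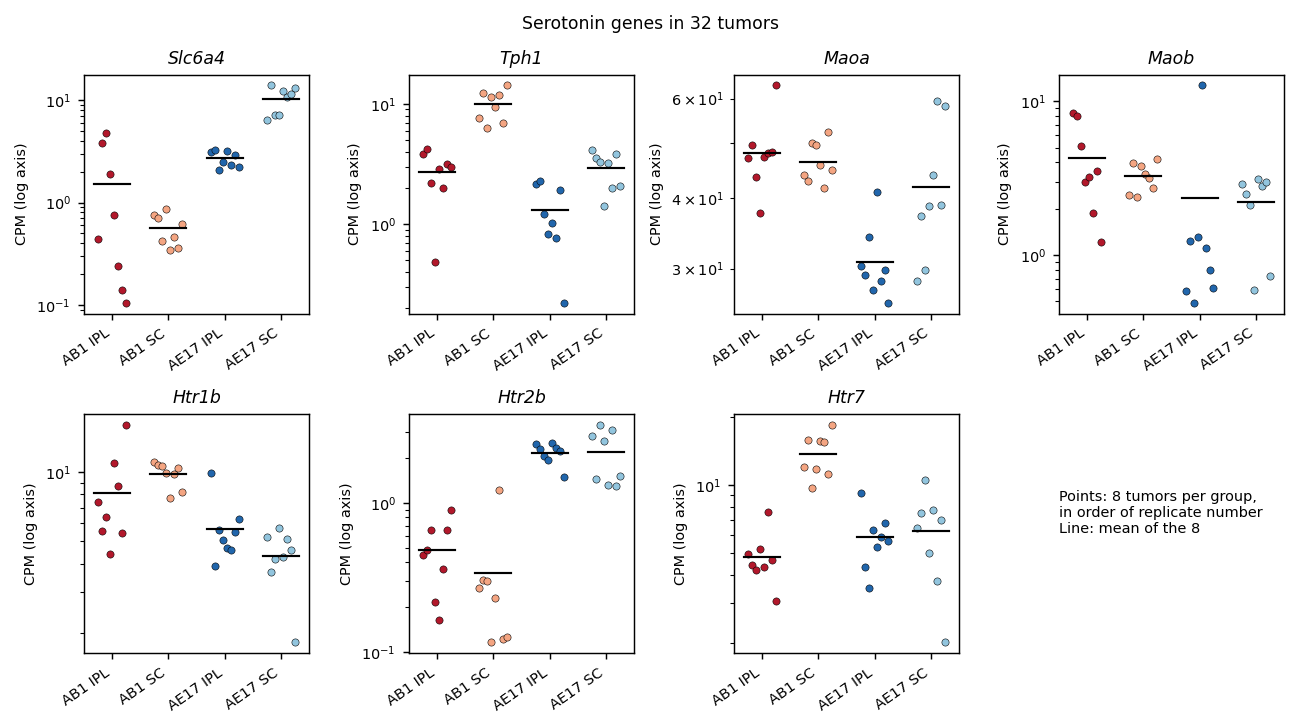
CPM (log axis) of the 7 measured serotonin genes in the 8 tumors of each group, with the group mean as a line. Slc6a4 separates AE17 IPL from AE17 SC tumors and spreads from 0.106 to 4.73 CPM in AB1 IPL tumors, while Tph1 and Htr7 separate the AB1 sites.

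By mean level, Slc6a4 was ordered as AE17 SC, AE17 IPL, AB1 IPL and AB1 SC. The last 3 groups are not cleanly ordered, since the AB1 IPL range covers that of the AE17 IPL tumors and that of the AB1 SC tumors. Between the models the log2 difference, AE17 minus AB1, was 4.16 in SC tumors and 0.84 in IPL tumors, the second with a standard error of 0.59. Under limma-voom the IPL value was 2.30. These values are descriptions, and model, strain and lane cannot be told apart in them.

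The genes most like Slc6a4 over the 32 tumors, among 13979 genes whose mean reached 1 CPM, were Mmp2 (Pearson's r = 0.92), Ism1 (0.92), Bicc1 (0.89), Pcdhga7 (0.89) and Larp6 (0.89). Mmp2, which encodes a matrix metalloproteinase, ran from 401.5 to 865.5 CPM in AE17 SC tumors, from 200.8 to 479.9 CPM in AE17 IPL tumors (to 381.4 CPM without replicate 5, so that the AE17 sites overlap through that tumor alone) and from 46.6 to 277.9 CPM in AB1 tumors of either site. These points share groups, so that group differences enter the correlation. With the group means removed, the closest genes were Prtn3 (0.79), Tmem164 (0.77), Cpz (0.76), S100a9 (0.75) and Padi4 (0.75). Prtn3, S100a9 and Padi4 are known from neutrophils and their precursors. This likeness rested on the AB1 IPL tumors, for without them the r of these 5 genes over the other 24 tumors was 0.07, 0.17, 0.37, -0.06 and -0.33. In AB1 IPL tumors S100a9 was at 228 and 133 CPM in replicates 3 and 4 and below 1 CPM in replicates 6, 7 and 8, where Slc6a4 was also lowest. It was at 28.1 CPM in replicate 2, which had the second highest Slc6a4, and at 24.04 and 48.8 CPM in replicates 1 and 5, so the tumors do not have the same order in both genes.

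Tph1, the rate-limiting enzyme of serotonin synthesis outside the nervous system, fell in AB1 IPL tumors. AB1 SC tumors ranged from 6.28 to 14.2 CPM (median 10.5 CPM) and AB1 IPL tumors from 0.489 to 4.20 CPM (median 2.95 CPM), so that every IPL tumor lay below every SC tumor. This is a 3.75-fold lower level, with a log2 fold change of -1.91 ± 0.30 (adjusted p = 0.000238, edgeR's quasi-likelihood test, standard error after the sign). Among all 14645 genes tested in AB1, 23% passed the test in either direction and 10.7% in this direction, and 2.48% had every IPL tumor below every SC tumor (2.52% had every IPL tumor above). In AE17 tumors the level was 1.42 to 4.15 CPM at the SC site (median 3.25 CPM) and 0.223 to 2.30 CPM at the IPL site (median 1.12 CPM). There all 8 IPL tumors lay below the SC median and 5 lay below every SC tumor, with a log2 fold change of -1.16 ± 0.35 as a description.

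Mast cell markers moved with Tph1. All 7 measured markers fell in AB1 IPL tumors (edgeR, adjusted p under 0.05), among them the protease genes Cpa3 (log2 fold change -1.61) and Tpsab1 (-1.78) and the growth factor receptor Kit (-0.96). In AE17 IPL tumors 3 of the 7 passed the test, all lower, with a median of -1.27 over the list. Of all genes, 10.7% fell in AB1 and 3.13% in AE17. With lane as a covariate 1 of 14668 genes passed in AE17. With muscle, fat and lung marker scores 1 gene passed in each model, so most of the marker calls were lost in those fits. The summed level of the 7 markers was 28.6 to 188.5 CPM in AB1 IPL, 223.7 to 499.8 CPM in AB1 SC, 21.4 to 112.4 CPM in AE17 IPL and 71.0 to 277.6 CPM in AE17 SC tumors. None of these markers was at 0 throughout a group. Cd200r3, the measured basophil marker, was lower in IPL tumors of both models as well.

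Within each group, too, tumors with more mast cell marker RNA held more Tph1 RNA. Pearson's r between log2 CPM of Tph1 and the mast cell score (the mean log2 CPM of the 7 markers) was 0.98 in AB1 IPL, 0.89 in AB1 SC, 0.95 in AE17 IPL and 0.96 in AE17 SC tumors (n = 8 each). The exact two-sided permutation p, adjusted over the 12 relations computed for Tph1, Slc6a4 and Htr7, was 0.00655, 0.00982, 0.00982 and 0.00655 in that order. Spearman's rho was 0.88, 0.86, 0.81 and 0.95, with adjusted exact permutation p of 0.0428, 0.0428, 0.0653 and 0.0137. Without the 2 tumors farthest from the median score, r was 0.80, 0.76, 0.90 and 0.98. AB1 IPL and AE17 SC tumors each ran on a single lane, so the r values of these groups are also within-lane values, and among the 6 AB1 SC tumors of lane 2 r was 0.88. The AE17 IPL lanes held 5 and 3 tumors, too few for a value.

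With mast cell and platelet scores as covariates, the site difference of Tph1 was -0.24 in AB1 (adjusted p = 0.465 by edgeR) and -0.19 in AE17. In AB1 the mast cell score itself did not overlap between the sites (at most 3.31 in IPL and at least 3.61 in SC tumors). That fit therefore cannot tell the score from the site, and the part of mast cells in the Tph1 difference was not tested. The genes most like Tph1 with the group means removed, chosen for display after their values were seen, were Cd200r3 (r = 0.94), Mrgprb2 (0.94), Cpa3 (0.94), Mrgprx2 (0.93) and Mrgprb1 (0.93), which are known from mast cells and basophils. For Slc6a4 r to the mast cell score was -0.07, 0.45, 0.62 and -0.12 in the same order of groups, and no relation passed (adjusted exact permutation p from 0.123 to 0.835). For Htr7 r was -0.32, 0.74, 0.14 and 0.76, and the smallest adjusted exact permutation p was 0.0856.

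**Figure D2:**
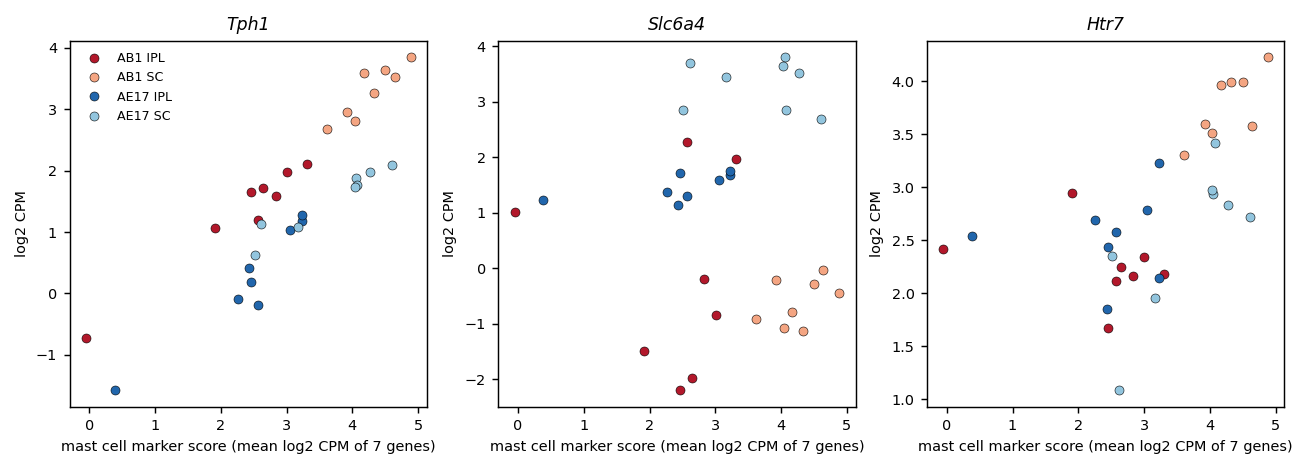
Log2 CPM of Tph1, Slc6a4 and Htr7 against the mast cell marker score (mean log2 CPM of 7 genes), with 8 tumors per group as points. Tph1 follows the score within each group (r from 0.89 to 0.98), while for Slc6a4 r runs from -0.12 to 0.62.

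The AB1 value of Tph1 was of like size with lane in the fit. With lane as a covariate the log2 fold change was -1.89 (adjusted p = 0.0270, edgeR), and within lane 3, with 8 IPL and 2 SC tumors, it was -1.93 and no longer passed (adjusted p = 0.121). With muscle, fat and lung marker scores as covariates it was -2.004 (adjusted p = 0.197), beside skeletal muscle markers that reached a summed median of 1826 CPM in AB1 IPL and 267 CPM in AB1 SC tumors.

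Maoa and Maob degrade serotonin at the outer mitochondrial membrane. Scaled by exon length, Maoa had the highest level of the 7 genes in every group, with means of 7.40 to 11.6 FPKM (CPM per kilobase of exon), and no other member exceeded a mean of 4.06 FPKM. Maoa had medians of 47.7 CPM in AB1 IPL and 45.4 CPM in AB1 SC tumors and did not pass the test (log2 fold change 0.02 ± 0.08, adjusted p = 0.881, edgeR). In AE17 tumors its medians were 29.5 CPM (IPL) and 38.7 CPM (SC), with overlapping ranges and a log2 fold change of -0.43 ± 0.15 as a description.

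Maob ranged from 1.22 to 8.38 CPM in AB1 IPL and from 2.39 to 4.19 CPM in AB1 SC tumors (log2 fold change 0.37 ± 0.32, adjusted p = 0.434, edgeR). The AB1 value turned to -0.61 with muscle, fat and lung marker scores and did not pass there. In AE17 tumors the site difference depended on 1 library. AE17 IPL replicate 5 held 211 counts of Maob, or 12.7 CPM, where the other 7 IPL tumors held 8 to 22 counts, and AE17 SC tumors ranged from 0.594 to 3.15 CPM. The log2 fold change was 0.09 with that tumor and -1.34 without it. The same tumor held 314 counts of Th and 475 of Dbh, which encode enzymes of noradrenaline synthesis, against at most 2 counts of either in the other 7. It also held 770 counts of the noradrenaline transporter Slc6a2, which can carry serotonin too, 196 of Ddc, 70 of Htr3a and 19 of Htr3b. Htr3a and Htr3b, subunits of the serotonin-gated ion channel, had 1 count in all in the rest of the group. The summed neuron markers were 74.3 CPM there against a group median of 1.18 CPM, the fat markers were 898 CPM against 33.3 CPM, the cardiac muscle markers 183.7 against 28.8 CPM, the Schwann cell markers 37.1 against 15.6 CPM and the skeletal muscle markers 725 against 444.8 CPM. Its Slc6a4 (53 counts) and Tph1 (17 counts) lay within the range of the other tumors. Slc6a2, Htr3a and Htr3b were singled out after their values were seen.

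**Figure D3:**
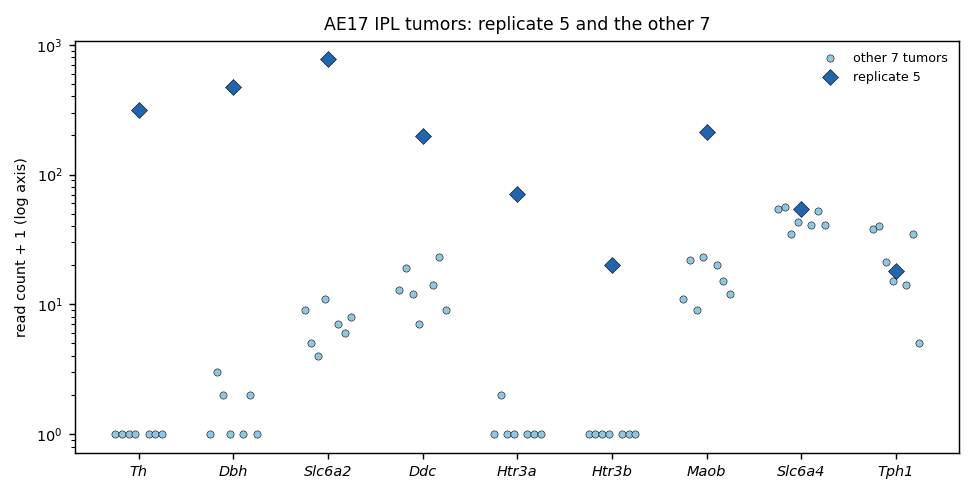
Read counts plus 1 (log axis) of 9 genes in the 8 AE17 IPL tumors, with replicate 5 as a diamond and the other 7 as circles. Replicate 5 is highest for Th (314 counts), Dbh, Slc6a2, Ddc, Htr3a, Htr3b and Maob (211 counts), and lies among the others for Slc6a4 and Tph1.

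Among the receptors, Htr7 fell in AB1 IPL tumors. Htr7 couples to the stimulatory G protein and raises cyclic AMP. AB1 SC tumors ranged from 9.74 to 18.6 CPM (median 13.8 CPM) and AB1 IPL tumors from 3.06 to 7.60 CPM (median 4.53 CPM), without overlap. The log2 fold change was -1.56 ± 0.17 (adjusted p = 1.49e-05, edgeR's quasi-likelihood test), or 2.94-fold lower. It was -1.55 with lane as a covariate (adjusted p = 0.00377), -1.60 within lane 3 (adjusted p = 0.0172) and -1.57 with mast cell and platelet scores (adjusted p = 0.00913), and it lost the call only with muscle, fat and lung marker scores (-1.49, adjusted p = 0.145), among the alternatives run. In AE17 tumors the sites overlapped fully, with medians of 5.77 CPM (IPL) and 6.74 CPM (SC) and a log2 fold change of -0.09 ± 0.27, which turned to 0.33 with mast cell and platelet scores and to 0.093 with muscle, fat and lung marker scores. Whether the site difference of Htr7 differs between the models was not tested, because the AE17 contrast chose the genes.

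The genes most like Htr7 with the group means removed, chosen for display after their values were seen, were Scimp (r = 0.86), Bcl2a1a (0.85), Bcl2a1d (0.85), Cd40 (0.84) and Adgrg5 (0.84). Cd40 and Scimp are known from antigen-presenting cells. The macrophage list fell in AB1 IPL tumors for 3 of 5 tested genes (edgeR), beside 10.7% of all genes. Its summed level was 1069 to 1844 CPM against 1330 to 2173 CPM at the SC site. With muscle, fat and lung marker scores 1 of 14645 genes passed in AB1, so most of these calls were lost there. The part of the macrophage list in the Htr7 difference was not tested. Maoa and Htr7 varied in opposite directions within groups (r = -0.65 over 32 tumors, group means removed), the largest correlation in size among the 21 pairs of members. Its sign is a description, since the tumors share their library composition.

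Htr1b and Htr2b did not separate the sites in either model. Htr1b, coupled to the inhibitory G protein, had medians of 6.87 CPM in AB1 IPL and 10.2 CPM in AB1 SC tumors (log2 fold change -0.31 ± 0.21, adjusted p = 0.324, edgeR). IPL replicate 8 was the highest of all, at 16.1 CPM, and without it the log2 fold change was -0.52 (adjusted p = 0.0310). In AE17 tumors the Htr1b medians were 5.28 CPM (IPL) and 4.44 CPM (SC), and the log2 fold change was 0.40 ± 0.21. Htr2b, coupled to the Gq protein, was too low in AB1 tumors for the edgeR filter, with 2 to 21 counts per tumor, and a fit without a filter gave 0.52 (adjusted p = 0.465). In AE17 tumors its medians were 2.26 CPM (IPL) and 2.07 CPM (SC), with a log2 fold change of -0.0011 ± 0.22, which lay between -0.21 and 0.36 over the alternatives.

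Counted over the members, 2 of the 6 tested in AB1 fell (Tph1 and Htr7) and 0 rose at an adjusted p under 0.05 by edgeR. At an unadjusted p under 0.05, 1 member (Slc6a4) was higher by edgeR, 1 by DESeq2 and 0 by limma-voom, and 0 rose at an adjusted p under 0.05 by DESeq2 or limma-voom. Of all 14645 genes, 10.7% fell and 12.3% rose. The median log2 fold change of the 6 was -0.14, and that of all genes tested was -0.0023. In AE17 the only member past the threshold, of 7 in the fit, was Slc6a4, which was chosen for this difference, so nothing is read from the count. Of all 14668 genes 5.73% passed there, and 0.573% had sites that did not overlap (0.307% with the IPL tumors lower).

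**Figure D4:**
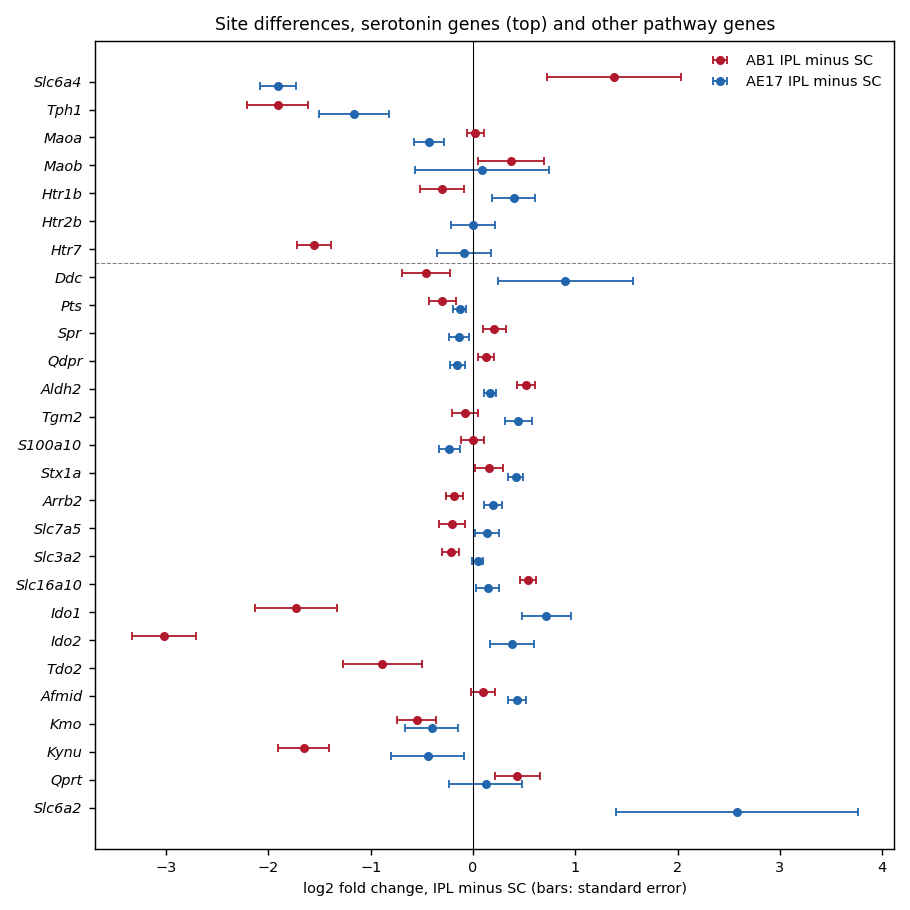
Log2 fold change, IPL minus SC, with its standard error from edgeR, for the measured serotonin genes (above the dashed line) and the other pathway genes that passed the count filter, in AB1 (red) and AE17 (blue). Tph1 lies below 0 in both models, Htr7 at -1.56 in AB1 and -0.09 in AE17, and Ido2 at -3.02 in AB1 and 0.38 in AE17.

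Other genes of serotonin and tryptophan metabolism were taken from 7 lists of 43 names, of which 31 have a row. In AB1 19 of them could be tested, and 2 rose and 4 fell in IPL tumors, beside 12.3% and 10.7% of all genes. The 4 that fell all belong to the kynurenine branch, which had 7 tested members. They were Ido2 (log2 fold change -3.02, adjusted p = 1.06e-05) and Ido1 (-1.73, adjusted p = 0.00475), which open the tryptophan ring, Kynu (-1.65, adjusted p = 0.000187) and Kmo (-0.55, adjusted p = 0.0447), by edgeR. Ido2 ran from 0.431 to 4.46 CPM in AB1 IPL and from 9.39 to 18.6 CPM in AB1 SC tumors, without overlap. With lane as a covariate Ido2 (-2.97, adjusted p = 0.00211) and Kynu (-1.73, adjusted p = 0.0176) still passed, and Ido1 and Kmo did not (adjusted p of 0.148 and 0.419). With muscle, fat and lung marker scores 1 of all 14645 genes passed in AB1, so at most 1 of these 4 kept its call there. Of the macrophage markers given with Htr7, Mrc1 (-0.94), C1qa (-0.44) and Cd68 (-0.33) passed in AB1, all lower. Csf1r (-0.24, adjusted p = 0.107) and Mertk (-0.07, adjusted p = 0.681) did not, by edgeR. The part of these markers in the kynurenine differences was not tested. The 2 genes that rose were Aldh2 (0.52, adjusted p = 0.000519), which oxidises the aldehyde left by the monoamine oxidases, and the aromatic amino acid carrier Slc16a10 (0.54, adjusted p = 0.000123), and both kept the AB1 sites apart without overlap. DESeq2 called 2 genes higher and 5 lower, adding the amino acid carrier gene Slc3a2, beside 14.6% and 11.8% of all genes by that tool. Limma-voom called 2 higher and 8 lower, adding Slc3a2, Slc7a5, Ddc and Arrb2, beside 15% and 16.6%, so the lower genes were all of the kynurenine branch by edgeR and not by these tools. With lane as a covariate Slc16a10 passed (adjusted p = 0.0320) and Aldh2 did not (adjusted p = 0.0925, edgeR).

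In AE17 2 of 19 tested genes rose and 0 fell by edgeR, beside 2.6% and 3.13% of all genes. Stx1a, a membrane fusion protein that binds Slc6a4, rose by 0.42 on the log2 scale (adjusted p = 0.00761) and the kynurenine formamidase gene Afmid by 0.43 (adjusted p = 0.0150, edgeR). Neither passed with lane as a covariate (adjusted p of 0.182 and 0.189). Among the lower genes 1 (S100a10) had an unadjusted p under 0.05, while DESeq2 called 4 genes higher and 1 lower (Slc6a2, whose highest count DESeq2 replaces at default settings), beside 5.61% and 5.71% of all genes by that tool. Limma-voom called 6 higher and 4 lower, beside 14.1% and 12.9%. Without AE17 IPL replicate 5, left out after the data were seen, edgeR called 3 higher (Afmid, Stx1a and Ido1 at 0.79, adjusted p = 0.0485) and 1 lower (Slc6a2), beside 3.86% and 4.7% of all genes. Ddc was then -0.60 (adjusted p = 0.201) against 0.90 (adjusted p = 0.414) with it. Ido1, which fell in AB1, had a log2 fold change of 0.72 here (adjusted p = 0.0805, edgeR). The cofactor genes Pts, Spr and Qdpr, which make or recycle tetrahydrobiopterin for the hydroxylases, did not pass at either site comparison by edgeR or DESeq2. By limma-voom Pts (-0.18, adjusted p = 0.0153) and Qdpr (-0.17, adjusted p = 0.0396) were lower in AE17 IPL tumors, and the other 2 genes it called lower were Kmo and Kynu. The other receptors with a row (Htr1d, Htr2c, Htr3a, Htr3b, Htr5a, Htr5b and Htr6) and the carriers Slc18a1 and Slc29a4 were too low to test in any comparison, as was Tph2, which had at most 4 counts in any tumor.

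The models were also compared at each site. In SC tumors 63.7% of 14718 genes differed between AE17 and AB1, and in IPL tumors 59.1% of 14886 genes did, so that a call in these comparisons is common. Slc6a4 aside, 6 members were tested in each. Htr2b was higher in AE17 tumors at both sites, by 2.70 ± 0.41 in SC (adjusted p = 1.69e-05) and by 2.15 ± 0.26 in IPL tumors (adjusted p = 1.30e-06, edgeR) on the log2 scale. Without AB1 SC replicate 6, which held 21 counts where the other 7 held 2 to 6, the SC value was 3.35 (adjusted p = 1.29e-07, edgeR). Every AE17 tumor held more Htr2b (at least 1.30 CPM) than every AB1 tumor (at most 1.22 CPM). This holds only after scaling for library size, since the lowest AE17 count and the highest AB1 count were both 21. Of 14476 genes tested at both sites, 8.07% had every AE17 tumor above every AB1 tumor. Tph1 was lower in AE17 at both sites, with log2 differences of -1.74 ± 0.23 in SC (adjusted p = 2.95e-06) and -1.04 ± 0.40 in IPL tumors (adjusted p = 0.0335, edgeR).

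The IPL value of Tph1 lost its call when any of 7 of the 16 tumors was left out, with adjusted p up to 0.0644 (edgeR). Those were AB1 IPL replicates 1, 2 and 7 and AE17 IPL replicates 3, 4, 5 and 6. Htr1b (-1.15, adjusted p = 1.04e-05) and Htr7 (-1.12, adjusted p = 0.000804) were lower in AE17 SC than in AB1 SC tumors, and in IPL tumors neither passed, with log2 differences of -0.49 (adjusted p = 0.0991) and 0.30 (adjusted p = 0.185). The IPL value of Htr1b passed without AB1 IPL replicate 4 (-0.58, adjusted p = 0.0461) or AE17 IPL replicate 1 (-0.66, adjusted p = 0.0293, edgeR), and by limma-voom (-0.51, adjusted p = 0.0260). Maoa was lower in AE17 IPL than in AB1 IPL tumors (-0.63, adjusted p = 4.91e-05), and in SC tumors the difference was -0.13 (adjusted p = 0.418) by edgeR and -0.22 (adjusted p = 0.0286) by limma-voom. Maob did not pass at either site, with -0.52 in SC (adjusted p = 0.114) and -0.85 in IPL tumors (adjusted p = 0.285) by edgeR. The IPL value of Maob was -2.26 without AE17 IPL replicate 5 (adjusted p = 0.000148, edgeR) and -1.98 by limma-voom with all tumors (adjusted p = 0.000506). The site and model comparisons share samples.

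Of the other pathway genes, 4 were higher and 11 lower in AE17 SC than in AB1 SC tumors (19 tested), beside 32.5% and 31.2% of all genes. In IPL tumors 9 were higher and 5 lower in AE17 (18 tested), beside 28.6% and 30.5%. Without AE17 IPL replicate 5 the IPL count was 8 higher and 5 lower, beside 28% and 30%. In SC tumors the largest differences by list included Spr (-0.85, adjusted p = 5.69e-07), Qprt (-1.48, adjusted p = 0.000141), Tdo2 (-1.21, adjusted p = 0.0181) and S100a10 (1.14, adjusted p = 1.08e-08), which encodes a partner of Htr1b. In IPL tumors they included Ddc (1.82, adjusted p = 0.0312), which was 0.32 (adjusted p = 0.383) without AE17 IPL replicate 5 and also lost its call without AB1 IPL replicate 3, 5 or 8 (adjusted p up to 0.0544, edgeR). They also included Ido2 (2.23, adjusted p = 1.84e-05), Ido1 (1.69, adjusted p = 0.00125), Spr (-1.24, adjusted p = 7.31e-08) and Qprt (-1.83, adjusted p = 4.99e-05). Ido2 and Ido1 were lower in AE17 than in AB1 tumors at the SC site (-1.12, adjusted p = 8.08e-05, and -0.71, adjusted p = 0.0247) and higher at the IPL site, all by edgeR.

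**Figure D5:**
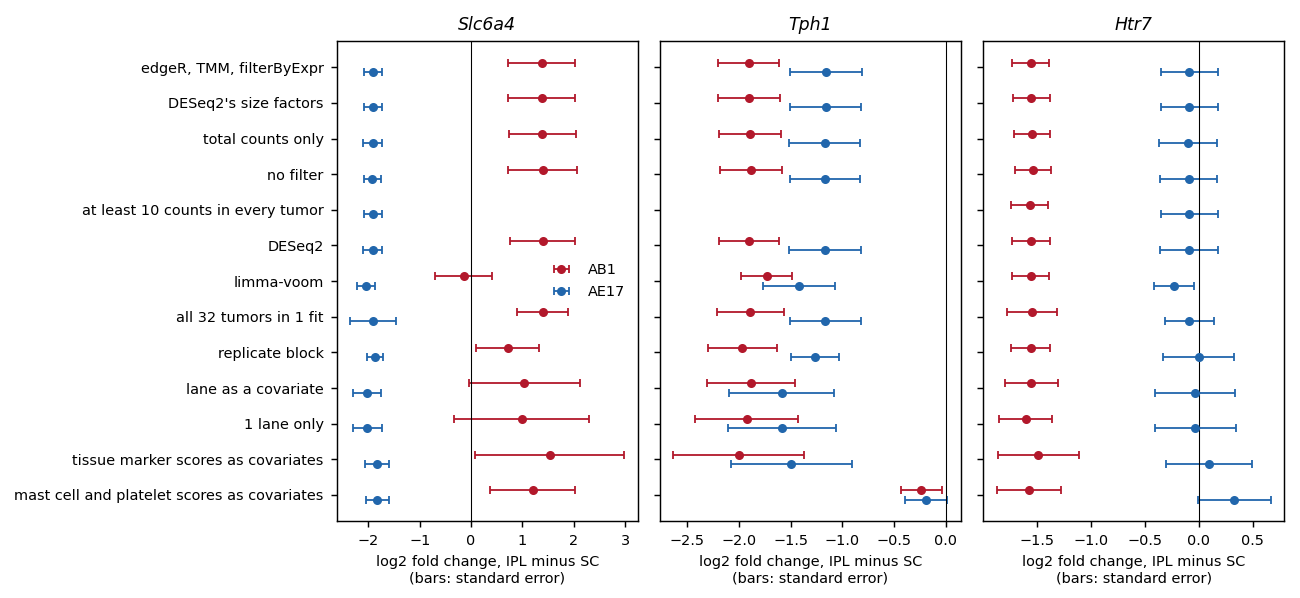
Log2 fold change, IPL minus SC, with its standard error, of Slc6a4, Tph1 and Htr7 in AB1 (red) and AE17 (blue) under each way of fitting the counts. AE17 Slc6a4 stays between -2.04 and -1.82, AB1 Slc6a4 turns to -0.14 under limma-voom, and Tph1 comes to -0.24 and -0.19 with mast cell and platelet scores, while a missing point marks a gene that did not reach 10 counts in every tumor.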

How the data were processed

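The authors deposited raw counts of reads per gene for 32 tumors, not normalized. Single-end reads of 50 bp had been checked with FastQC, mapped with HISAT2 2.0.4 and counted with SummerizeOverlaps. Base calling used bcl2fastq 1.8.4, per the labels. The build is named mm11 by the study, and 39495 of 39676 gene identifiers matched GENCODE M21 on GRCm38, which gave the coordinates. Sample titles gave the groups, and alignment names gave the lanes.

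Sites were compared within each model, and AE17 with AB1 within each site, in R 4.3.3 with edgeR 4.0.16 (filterByExpr, TMM factors, robust quasi-likelihood fit, two-sided F test, Benjamini-Hochberg adjustment over all genes tested, called at an adjusted p under 0.05). Standard errors were the log2 fold change divided by the square root of F. Alternatives used DESeq2 1.42.0, limma 3.58.1 (voom with sample weights), other scalings and count filters, 1 fit of 32 tumors, a replicate block, lane or marker scores as covariates, 1 lane, an adjusted p under 0.01, and each tumor left out. Log2 CPM for correlations used a prior count of 2. Correlations were tested by exact permutation over all orders of 8 tumors.

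Total counts per tumor ranged from 15432258 to 20649645. The 496 pairs of tumors had a chi-square of 5.92 to 274.6 for each degree of freedom, so no pair differed by as little as sampling noise. Each tumor came from a separate mouse. In simulated data for the AB1 comparison (14529 genes), edgeR recovered 81.4% of 97 genes changed 2-fold and 92.6% of 94 changed 4-fold, with 4 false calls.

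The members and the lists of pathway and marker genes were chosen with earlier results of these data known. Named are all members, up to 4 called genes per pathway list and comparison, by size of change, the first 3 measured markers of a list, and the 5 genes most like Slc6a4. Other names were chosen after their values were seen. No protein sequences were used here. A gene of the neuron marker list is not reported here and was left out of that list's sums.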

Additional observations from a re-analysis of the deposited data

Results flagged for a closer look

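Dixon's ratio of gap to range was taken for the highest or lowest tumor in 44 groups of 8 tumors (11 genes in 4 groups). Of these groups, 10 were past the ratio's 95% critical value for 8 samples. Slc6a2, Ddc and Ido1 are among the 11 genes without being members, and Slc6a2 was picked with its values already known. The 10 are therefore a description and cannot be set against a chance rate. AE17 IPL replicate 5 stood above its group for Maob (12.68 CPM), Slc6a2 (46.27 CPM) and Ddc (11.78 CPM), beside the noradrenergic genes described with Maob.

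The other 7 are single values. Maoa was highest in AB1 IPL replicate 8 (63.33 CPM, next 49.62 CPM), which was also highest for Htr1b. Htr1b was highest in AE17 IPL replicate 1 (9.887 CPM, next 6.233 CPM). Htr2b was highest in AB1 SC replicate 6 (1.225 CPM, next 0.3044 CPM), a difference of 21 counts against at most 6. Ido1 was highest in AB1 IPL replicate 5 (29.52 CPM, next 11.16 CPM). Slc6a2 was highest in AB1 IPL replicate 2 (3.825 CPM, next 0.5594 CPM) and in AE17 SC replicate 6 (2.815 CPM, next 1.51 CPM). In AB1 SC replicate 1 Slc6a2 was at 0.0 CPM, where the other 7 tumors held 1 count each, a difference below the detection limit.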

How the results depend on the processing

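Of the members tested between AB1 sites, 2 passed. This count was 1 with at least 10 counts in every tumor (4 genes left, Tph1 not among them), 1 within lane 3, 0 with tissue marker scores and 1 with mast cell and platelet scores, and 2 to 3 over single tumors left out. For the other pathway genes in AB1 it was 6, and 3 with lane as a covariate. In AE17 the genes were chosen on this contrast, so the following counts describe the settings and test nothing. There 1 member (Slc6a4) passed, against 4 with DESeq2, 4 with limma-voom, 3 with 1 fit of all 32 tumors and 2 with the replicate block, and 1 to 3 over single tumors left out, 3 without AE17 IPL replicate 5 and 2 without AE17 IPL replicate 2 or AE17 SC replicates 1, 3 or 4. The share of all genes called also moved, from 5.73% to 11.3%, 27%, 8.44% and 4.51% under those first 4 settings and 8.56% without AE17 IPL replicate 5. For the other pathway genes in AE17 it was 2, with 5 by DESeq2, 0 with lane as a covariate and 4 without AE17 IPL replicate 5, an alternative chosen after seeing the data. Between models in IPL tumors, 3 members passed, 1 with at least 10 counts in every tumor (3 genes left) and 5 with limma-voom (67% of all genes, against 59.1%), and 2 to 4 over single tumors left out. The fewer genes tested lower the counts under the stricter filter. For the other changes the cause was not tested.

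Reversed in AB1 were Slc6a4 under limma-voom (-0.14), Maob with tissue scores (-0.61), Htr1b with tissue scores (0.31) and with mast cell and platelet scores (0.055), and Maoa without AB1 IPL replicate 8 (-0.041, from -0.041 to 0.047 over single tumors left out), none of them past the threshold. In AE17 the untested value of Htr7 turned to 0.33 with mast cell and platelet scores and 0.093 with tissue scores. Maob in AE17 was -1.20 under DESeq2, which replaces outlying counts at default settings, -1.20 under limma-voom and -1.39 with lane as a covariate. The AE17 minus AB1 difference of Slc6a4 in IPL tumors was 2.30 under limma-voom.

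Same-numbered IPL and SC tumors come from different mice, so the numbers were not taken as pairs. After removal of group means their residuals had a mean r of -0.14 in AB1, with 0 of 8 pairs over 0.1, and 0.09 in AE17, with 5 of 8. Tumors of unlike numbers had a mean r of 0.02 in AB1 and -0.007 in AE17. In AE17 IPL tumors the number also goes with lane, so the AE17 values cannot decide whether numbers mark pairs. A best match with the own number was found for 0 AB1 and 2 AE17 pairs. With the replicate block Tph1 was -1.97 (adjusted p = 0.00467) and Htr7 -1.55 (adjusted p = 0.000764) in AB1 by edgeR, and Maob between models in IPL tumors was -1.64 and passed (adjusted p = 0.0395). Whole-table calls fell from 3374 to 2263 in AB1 and from 840 to 661 in AE17. Lane as a covariate left 386 and 1 genes, and tissue scores 1 and 1. At this depth Htr2b in AB1 and most other receptors were too low to compare.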
